A study of Mus musculus with 27 samples.

Results

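Intestinal adenomas of mice with an activated Braf allele were compared with normal intestinal epithelium, across all genes of 1 table of expression values. The members were the 3 Braf adenoma libraries and the 3 oil-control libraries of the table in CPM (read counts scaled to the same library total), 6 of the 27 samples described in the series, and values of the other table were not used. Of the 17440 genes in the table, 15173 reached 1 CPM in at least 3 of its 9 libraries and were tested. The remaining 3 libraries were adenomas of mice with a Fosl1 transgene, and they entered for the estimate of spread and for 1 comparison near the end.

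Both groups were bred to the genotype BrafV637E/+;Vil-CreERT2/+, called Brafmut, per the protocol in the labels. This genotype joins 1 copy of the activated Braf allele V637E, silent until recombined, to a tamoxifen-dependent Cre recombinase under the villin promoter, which is active in intestinal epithelium and not in the stroma. The adenoma mice received 5 mg of tamoxifen in sunflower seed oil by oral gavage on 2 days at 6 weeks of age, and the controls received sunflower oil alone, although the labels of single control libraries give the oil and no genotype. Exposure to tamoxifen therefore went together with the recombined allele and with tumour tissue, and the 3 cannot be told apart here. The transgene mice were Tet-o-Fosl1;Vil-CreERT2/+, had the same tamoxifen course, and were fed doxycycline at 2000 mg/kg of chow from 1 week later. The titles number the adenoma libraries by mouse and the control libraries by normal tissue. The age at collection, the region of the intestine, the number of lesions per library and whether the transgene mice also carried the Braf allele are not stated in the sources used here.

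BRAF is the kinase that links RAS to MEK and ERK, and ERK signalling switches on immediate-early and AP-1 transcription factors together with inhibitors of its own pathway. Most of the small intestinal epithelium consists of absorptive enterocytes, which carry digestive enzymes and transporters on a brush border and are replaced from crypt stem cells that depend on Wnt signalling. Activated BRAF is a characteristic mutation of serrated lesions of the human colon, in which gastric and regenerative genes are known to appear in place of the intestinal programme.

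The 6 libraries held 12418499 to 14230691 reads, recovered from the CPM values. Libraries of 1 group correlated across genes at 0.977 to 0.986 (controls) and 0.965 to 0.970 (adenomas), against 0.814 to 0.879 between the groups. Libraries are given below in the order 1, 2, 3, and p-values rest on the spread within the groups of these 6 and the 3 transgene libraries, which may in part be technical. The sexes were not balanced. The Y-linked gene Ddx3y was at 25.1, 20.8 and 0 CPM in the controls and at 0 in all 3 adenomas. Xist, transcribed from the inactive X chromosome of females, was at 0.644, 0.934 and 839 CPM in the controls and at 238, 844 and 898 CPM in the adenomas. Controls 1 and 2 thus read as male, and control 3 and the adenomas as female. A term for Y-linked reads, which rests on control 3 and on the transgene libraries, left 5875 genes past the threshold, and control 3 as the only control left 3750. Both alternatives were added after the data were seen, and no gene past the threshold in them had the opposite direction.

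A large share of the measured genes differed between adenoma and control epithelium. At an adjusted p below 0.05 (limma on log2(CPM + 1), Benjamini-Hochberg over all genes tested), 7751 genes or 51.1% passed. Of these, 5020 (33.1%) were higher and 2731 (18.0%) lower in the adenomas. Changes of at least 2-fold were called for 2758 genes upward (18.2%) and 1705 downward (11.2%). The tail of the largest changes held more falls than rises, with 62 genes at least 64-fold lower and 31 at least 64-fold higher. The median gene was 0.27 higher on the log2 scale. After TMM scaling the median was 0.04 and the calls split into 3788 higher and 3819 lower. Every log2 change below is on the scale of log2(deposited CPM + 1) and is to be read against that median. Counts of list members are likewise to be read against the 33.1% higher and 18.0% lower of all genes tested. A value after ± is the standard error of the change, and intervals are 95% confidence intervals of the change.

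The largest rises joined a secreted chaperone, surface markers and secreted inhibitors. Clu encodes clusterin, an extracellular chaperone that marks revival stem cells of the damaged intestine, and lies on chromosome 14 at 65968483 to 65981547 (GRCm38). It was at 4.86, 11.6 and 5 CPM in the controls and at 11438, 9165 and 10352 CPM in the adenomas. Clu took 1.03% of all reads of the adenomas, more than any other gene, and its 3 adenoma values lay close together (log2 change 10.40 ± 0.31, adjusted p = 2.93e-08). Atg9b, a paralogue of the autophagy lipid scramblase Atg9a, was at 0.215, 0.234 and 0.455 CPM in the controls and at 1287, 1415 and 1743 CPM in the adenomas (log2 change 10.15 ± 0.23, adjusted p = 2.81e-09). Atg9b thus went from below 1 CPM in every control to above 1000 CPM in every adenoma, whereas Atg9a fell (log2 change -1.60 ± 0.33, adjusted p = 0.00249).

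The surface proteins Ly6d and Ly6a followed. Ly6d was at 0.787, 4.36 and 0.909 CPM in the controls and at 697, 1558 and 781 CPM in the adenomas. Ly6a, also called Sca-1 and known from fetal and repairing epithelium, was at 1.14, 2.26 and 0.909 CPM in the controls and at 467, 888 and 592 CPM in the adenomas. In both genes adenoma 2 was the highest library and no control came near an adenoma, with log2 changes of 8.49 ± 0.53 and 8.05 ± 0.45. Stra6, the membrane receptor for retinol-binding protein, was at 0, 0.0778 and 0 CPM in the controls and at 378, 197 and 279 CPM in the adenomas. Control 2 was the only control with any Stra6 read, and every adenoma was far above it (log2 change 8.07 ± 0.33, adjusted p = 1.06e-07).

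Il1rn, which encodes the antagonist of the interleukin-1 receptor, was at 0.429, 1.56 and 1.14 CPM in the controls and at 399.8, 549 and 463 CPM in the adenomas (log2 change 7.88 ± 0.27, adjusted p = 3.24e-08). Tnfrsf11b, the secreted decoy receptor osteoprotegerin, was at 0.358, 0.156 and 0.303 CPM in the controls and at 262, 241 and 319.7 CPM in the adenomas (log2 change 7.75 ± 0.15, adjusted p = 1.05e-09). Both secreted inhibitors were below 2 CPM in every control, and adenomas differed little from each other beside that gap. Anxa1, which encodes the anti-inflammatory phospholipid-binding annexin A1, reached 472, 327 and 601 CPM from 1.29, 1.17 and 0.682 CPM (log2 change 7.81 ± 0.23, adjusted p = 1.88e-08). Plat, the tissue plasminogen activator, reached 364, 379 and 177 CPM from 0.572, 0.467 and 0.227 CPM (log2 change 7.69 ± 0.26, adjusted p = 2.93e-08). Adenoma 3 was the highest library for Anxa1 and the lowest adenoma for Plat. Msx1, a homeobox gene, was at 0.358, 0.234 and 0.303 CPM in the controls and at 97.5, 306 and 239 CPM in the adenomas, lowest in adenoma 1 (log2 change 7.22 ± 0.49, adjusted p = 4.18e-06).

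Brush border enzymes of the enterocyte led the largest falls. Lct, the gene of lactase, lies on chromosome 1 at 128284756 to 128328318 and was at 1801, 1967 and 1206 CPM in the controls and at 0.632, 0.161 and 0.147 CPM in the adenomas (log2 change -10.29 ± 0.61, adjusted p = 4.18e-06). Sis, sucrase-isomaltase, was at 2422, 1475 and 1845 CPM in the controls and at 5.69, 6.76 and 0.147 CPM in the adenomas (log2 change -8.91 ± 0.76, adjusted p = 4.60e-05). Adenoma 3 had almost no Sis reads, while adenomas 1 and 2 kept a few CPM. The aminopeptidase genes Anpep and Enpep took the same course. Anpep, the fourth most abundant transcript of the controls, was at 6861, 5372 and 6293 CPM in the controls and at 19.3, 7.09 and 4.42 CPM in the adenomas (log2 change -9.32 ± 0.66, adjusted p = 1.57e-05). Enpep was at 1076, 878 and 1035 CPM in the controls and at 0.843, 0.322 and 0.147 CPM in the adenomas (log2 change -9.46 ± 0.55, adjusted p = 3.44e-06). Enpp7, the alkaline sphingomyelinase of the brush border, was at 979, 725 and 329 CPM in the controls and had no read in any adenoma. Its mean was at least 3019-fold lower, taken against a floor of 3 reads per library.

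Other large falls reached beyond the hydrolases. The dicarboxylate transporter Slc13a2, the carbonic anhydrase Car4, the amine oxidase Maoa, the neutral amino acid transporter Slc6a19 and the gluconeogenic enzyme Pck1 had log2 changes of -8.45, -8.01, -7.77, -7.50 and -7.56. Guca2b, the guanylin-family hormone that regulates intestinal fluid secretion, was at 1853, 2639 and 1286 CPM in the controls and at 6.32, 8.13 and 9.06 CPM in the adenomas (log2 change -7.72 ± 0.37, adjusted p = 5.73e-07). Guca2b kept a similar low level in all 3 adenomas, and control 2 was its highest library.

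**Figure D1:**
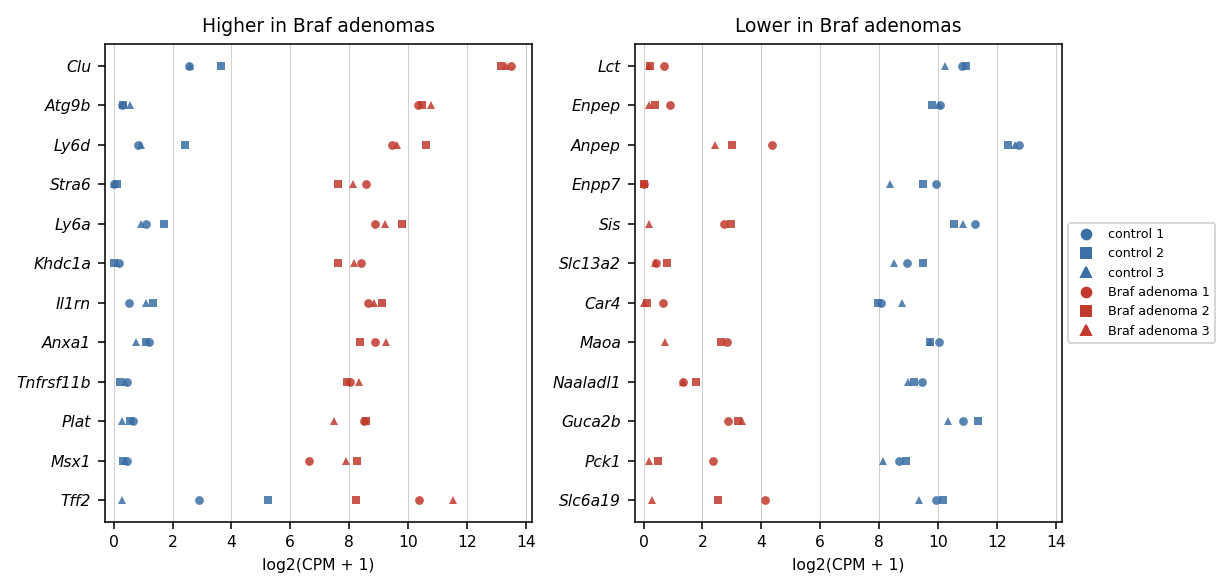
Level of the 12 largest rises (left) and 12 largest falls (right) on the log2(CPM + 1) scale, with 1 point per library, blue for the 3 controls and red for the 3 Braf adenomas. The groups did not overlap in any of the 24 genes, and Clu spanned 10.40 and Lct -10.29 between the group means.

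Promoter sequence is shown for genes of large change whose window holds a motif tied to the factors described below, AP-1 for rises and HNF4 for falls. The windows are the 250 bases upstream of the transcription start in RefSeq on GRCm38.p6. Capitals mark TGANTCA, the AP-1 motif, in the first 3 genes, and CAAAGTCCA, an HNF4 motif, in the last 3, on either strand. Il1rn is described above, Cybrd1 encodes the duodenal cytochrome b reductase that prepares iron for uptake, and Sprr1a a cornified envelope protein. Cyp3a11 is a drug-metabolising cytochrome, H2-T3 the non-classical class I molecule TL antigen, and Treh the enzyme trehalase.
Il1rn: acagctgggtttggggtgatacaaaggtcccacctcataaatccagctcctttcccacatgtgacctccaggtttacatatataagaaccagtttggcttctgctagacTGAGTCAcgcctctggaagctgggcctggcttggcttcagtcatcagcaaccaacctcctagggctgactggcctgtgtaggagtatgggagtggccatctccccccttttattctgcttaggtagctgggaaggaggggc
Cybrd1: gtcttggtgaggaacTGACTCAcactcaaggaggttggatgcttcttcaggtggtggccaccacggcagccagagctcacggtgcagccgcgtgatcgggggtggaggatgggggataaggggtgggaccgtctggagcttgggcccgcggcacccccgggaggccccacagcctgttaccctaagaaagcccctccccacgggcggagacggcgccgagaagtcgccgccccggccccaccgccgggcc
Sprr1a: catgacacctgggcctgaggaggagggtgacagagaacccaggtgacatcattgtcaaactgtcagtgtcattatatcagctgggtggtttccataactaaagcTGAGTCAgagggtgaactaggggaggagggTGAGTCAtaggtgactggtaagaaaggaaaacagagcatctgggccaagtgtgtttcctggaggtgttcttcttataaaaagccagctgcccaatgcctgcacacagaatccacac
Cyp3a11: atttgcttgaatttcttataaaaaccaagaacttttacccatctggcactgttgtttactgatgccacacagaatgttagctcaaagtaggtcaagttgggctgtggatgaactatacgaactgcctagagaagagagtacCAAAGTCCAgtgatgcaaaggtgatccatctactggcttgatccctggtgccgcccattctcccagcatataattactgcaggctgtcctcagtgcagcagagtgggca
H2-T3: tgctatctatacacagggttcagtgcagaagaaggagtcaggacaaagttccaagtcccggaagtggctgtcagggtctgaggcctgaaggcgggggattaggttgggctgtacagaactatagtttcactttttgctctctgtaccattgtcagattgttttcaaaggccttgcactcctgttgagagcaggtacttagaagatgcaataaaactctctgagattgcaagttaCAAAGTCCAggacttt
Treh: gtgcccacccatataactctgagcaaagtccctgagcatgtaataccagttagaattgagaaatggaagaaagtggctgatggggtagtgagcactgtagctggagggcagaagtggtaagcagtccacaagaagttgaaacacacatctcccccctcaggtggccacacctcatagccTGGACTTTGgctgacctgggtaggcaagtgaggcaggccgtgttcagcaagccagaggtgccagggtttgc
The windows lie at chr2:24336610-24336859 (Il1rn, plus strand), chr2:71117804-71118053 (Cybrd1, plus strand), chr3:92485882-92486131 (Sprr1a, minus strand), chr5:145879855-145880104 (Cyp3a11, minus strand), chr17:36190152-36190401 (H2-T3, minus strand), chr9:44672983-44673232 (Treh, plus strand). The log2 changes of these genes were 7.88, 6.73, 6.01, -7.10, -6.80 and -6.55, in that order, and these were the genes of largest rise or fall among those whose window held the motif.

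The same letters also occurred outside the changed genes. Of the 11266 genes tested that had a promoter window, 6.15% held TGANTCA on either strand, against 7.68% of the genes at least 2-fold higher and 7.76% of those at least 2-fold lower. CAAAGTCCA was held by 0.568% of these genes tested, by 0.492% of the higher and by 1.66% of the lower genes. The TCF/LEF motif CTTTGAT was held by 2.89%, 2.86% and 3.56% in that order, and TATAAA by 8.81%, 10.04% and 13%. Over all 27025 genes with a window in the RefSeq table the shares were 7.82%, 0.451%, 3.72% and 14.3%. A match is a description of letters and no evidence of binding, and binding was not measured.

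The gene of the mutated kinase, Braf, was at 9.65, 11.1 and 12.8 CPM in the controls and at 16.7, 19.5 and 18 CPM in the adenomas (log2 change 0.65 ± 0.22, adjusted p = 0.0316). Reads over the gene do not show which allele they came from. Of the 16 genes of the RAS to ERK cascade, 4 were higher and 2 lower, with a median log2 change of 0.09, and after TMM scaling 2 were higher and 3 lower. Over all genes tested 33.1% were higher and 18.0% lower, so this list does not stand above that background in either direction. Nras and Hras rose (0.95 and 0.84), and the scaffold gene Ksr1 fell by 1.87 on the log2 scale.

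Feedback inhibitors of ERK were largely raised. 7 of 11 tested members were higher and 1 lower, with a median of 1.84. Dusp6, the cytoplasmic ERK phosphatase, was at 32.6, 45 and 33.3 CPM in the controls and at 141, 138 and 127 CPM in the adenomas (log2 change 1.86 ± 0.17, adjusted p = 9.68e-06). The phosphatase Dusp4 was at 4.22, 5.14 and 5.91 CPM in the controls and at 79.8, 94.7 and 44.7 CPM in the adenomas, lowest in adenoma 3 (log2 change 3.55 ± 0.26, adjusted p = 2.36e-06). Both phosphatases were above every control in every adenoma. Spry1 and Spry4, Sprouty inhibitors of receptor signalling, rose by 2.52 and 2.70, Spry2 did not pass (0.14), and Spry3 fell to under 1 CPM (log2 change -2.23 ± 0.27, adjusted p = 6.77e-05).

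Early response genes of ERK signalling, most of them transcription factors, rose in 12 of 13 members and none fell, with a median of 1.92. Etv4, an ETS factor, was at 2.36, 5.14 and 7.65 CPM in the controls and at 125, 96.4 and 155 CPM in the adenomas (log2 change 4.47 ± 0.33, adjusted p = 4.53e-06). The pleckstrin-domain gene Phlda1 was at 2.36, 2.65 and 2.5 CPM in the controls and at 90.3, 53.1 and 170.5 CPM in the adenomas, with adenoma 3 highest and adenoma 2 lowest (log2 change 4.76 ± 0.36, adjusted p = 5.08e-06). Myc, a regulator of growth, was at 32.5, 47.3 and 69.9 CPM in the controls and at 227, 235 and 246 CPM in the adenomas (log2 change 2.28 ± 0.29, adjusted p = 1.41e-04). The 3 adenomas agreed closely for Myc, while control 3 was the highest control. Ier3, an immediate-early survival gene, rose by 3.69 and Egr1 by 1.92.

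AP-1 subunits differed in direction and size of change. Fosl1, the gene of Fra-1, had no read in any control and was at 4.15, 4.27 and 5.31 CPM in the adenomas (log2 change 2.47 ± 0.20, adjusted p = 5.05e-06). Its mean was at least 20.3-fold higher against the floor of 3 reads. Junb was at 154, 161 and 105 CPM in the controls and at 349, 394 and 419 CPM in the adenomas (log2 change 1.48 ± 0.19, adjusted p = 1.26e-04). Jund rose by 1.17 and Atf3 by 1.58, and Jun by 1.14, with control 3 far below the other controls. Fos was at 164, 149 and 87.5 CPM in the controls and at 126, 156 and 158 CPM in the adenomas and the groups overlapped. In all, 5 of 11 subunits were higher and 1 lower, and the share called is near the 51.1% of all genes tested.

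Ligands of the EGF receptor family, Nrg1 included, were higher in 5 of 6 tested genes, or in 3 with the term for Y-linked reads. Of the receptors and their regulators, 2 of 6 were higher and 1 lower, a share near that of all genes. Betacellulin, encoded by Btc, was at 2.07, 2.02 and 3.41 CPM in the controls and at 48.3, 58.8 and 83.3 CPM in the adenomas (log2 change 4.19 ± 0.27, adjusted p = 9.47e-07). Amphiregulin, encoded by Areg, was at 8.8, 8.72 and 2.42 CPM in the controls and at 60.6, 36.4 and 140.3 CPM in the adenomas (log2 change 3.32 ± 0.58, adjusted p = 0.00157). Areg was lowest in adenoma 2 and highest in adenoma 3, while both were above every control in every adenoma. Egfr was at 15.4, 18.6 and 20.9 CPM in the controls and at 86.3, 94.1 and 90.8 CPM in the adenomas (log2 change 2.25 ± 0.15, adjusted p = 1.11e-06). Lrig3, a leucine-rich membrane protein of the family that restrains receptor tyrosine kinases, was at 54.4, 62.1 and 64.3 CPM in the controls and at 2.88, 1.45 and 2.43 CPM in the adenomas (log2 change -4.26 ± 0.24, adjusted p = 4.67e-07). The calls of Jun and Braf were lost after TMM or median-ratio scaling. Nrg1 no longer passed with the term for Y-linked reads. Against control 3 alone, Nras, Hras, Nrg1 and Braf did not pass. Without control 1, control 2, control 3, adenoma 1 or adenoma 3, Nrg1 did not pass either, with log2 changes of 1.04 to 1.47. Without control 1, control 2, adenoma 1, adenoma 2 or adenoma 3, Braf did not pass either, with log2 changes of 0.56 to 0.70.

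Most targets and feedback inhibitors of Wnt signalling rose. Of 15 tested genes, 12 were higher and 0 lower, with a median of 2.71 and no change of the count after TMM scaling. Nkd1, a Dishevelled antagonist, was at 1.22, 2.18 and 0.379 CPM in the controls and at 457, 183 and 346 CPM in the adenomas (log2 change 7.17 ± 0.40, adjusted p = 1.47e-06). Notum, a secreted deacylase of Wnt ligands, was at 1.07, 0.856 and 0.53 CPM in the controls and at 249, 123 and 216 CPM in the adenomas (log2 change 6.71 ± 0.29, adjusted p = 1.20e-07). Axin2 was at 43.9, 49.97 and 60.4 CPM in the controls and at 224, 395 and 236 CPM in the adenomas (log2 change 2.41 ± 0.33, adjusted p = 2.45e-04). Among adenomas, Nkd1 and Notum were lowest in adenoma 2, where Axin2 was highest. Lef1 and Tcf7, DNA-binding partners of beta-catenin, rose by 3.09 and 3.16.

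Of Wnt ligands and receptors, 5 of 15 were higher and 2 lower, about the share of all genes. The ligand gene Wnt7b rose from no more than 0.0758 CPM to 15.5, 6.2 and 5.23 CPM (log2 change 3.11 ± 0.34, adjusted p = 3.80e-05) and the receptor gene Fzd5 fell (log2 change -2.02 ± 0.18, adjusted p = 7.36e-06). Ctnnb1, beta-catenin, rose by 0.94, and Apc did not pass (-0.16, interval -0.61 to 0.28).

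Crypt stem cell genes did not move as 1 group. Of 13 tested, 8 were higher and 2 lower, with a median of 0.91. Lgr5, the marker of active crypt base stem cells, was at 4.5, 7.32 and 4.85 CPM in the controls and at 12.2, 1.13 and 1.33 CPM in the adenomas. Adenoma 1 was above every control and adenomas 2 and 3 below them, so the groups overlapped (log2 change -0.68 ± 0.62, adjusted p = 0.383). Ascl2, the factor that sustains that state, was at 9.22, 12.8 and 9.09 CPM in the controls and at 50.5, 79.96 and 72.1 CPM in the adenomas (log2 change 2.58 ± 0.21, adjusted p = 4.66e-06). Olfm4, a secreted stem cell marker, was at 314, 329 and 514 CPM in the controls and at 26.7, 4.11 and 22.9 CPM in the adenomas, lowest in adenoma 2 (log2 change -4.65 ± 0.70, adjusted p = 9.35e-04). Sox9 and the receptor gene Tnfrsf19 rose by 2.97 and 4.62, and Prom1 by 2.98.

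Eph receptors, which keep cell positions along the crypt axis, were higher in 8 of 13 genes of their list and lower in 1. Ephb3 was at 10.2, 18.1 and 14.8 CPM in the controls and at 163, 121 and 189 CPM in the adenomas (log2 change 3.38 ± 0.23, adjusted p = 1.36e-06), and Ephb2 rose by 1.55. Epha1, a receptor of the differentiated epithelium, was the 1 that fell (log2 change -2.26 ± 0.20, adjusted p = 8.15e-06).

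Of Notch pathway genes, 8 of 13 were higher and 3 lower, with a median of 1.11. Dll1, the ligand of secretory precursors, was at 80.3, 108 and 70.1 CPM in the controls and at 12.9, 7.25 and 7.3 CPM in the adenomas (log2 change -3.12 ± 0.24, adjusted p = 3.04e-06). Jag2 was at 7.22, 9.42 and 7.73 CPM in the controls and at 75, 124 and 79.9 CPM in the adenomas (log2 change 3.34 ± 0.29, adjusted p = 7.65e-06). The 2 ligands moved in opposite directions without overlap between the groups. The target Hes1 rose by 1.37, the feedback gene Nrarp fell by 1.44, and Notch1 did not pass (-0.49).

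Genes of TGF-beta and BMP signalling were higher in 17 of 22 and lower in 1, with a median of 1.41. The receptor gene Tgfbr2 was at 8.15, 14.4 and 13.3 CPM in the controls and at 235, 372 and 171 CPM in the adenomas (log2 change 4.29 ± 0.28, adjusted p = 1.42e-06). Tgfb1 was at 1.29, 3.66 and 0.833 CPM in the controls and at 34.1, 19.97 and 23.7 CPM in the adenomas (log2 change 3.29 ± 0.33, adjusted p = 2.19e-05). Receptor and ligand were thus raised together in all 3 adenomas. Id1, a target of BMP signalling, rose by 1.86, while Smad4 fell by 0.63. Smad4 no longer passed with the term for Y-linked reads. Ctnnb1, Ephb2, Hes1, Nrarp and Smad4 did not pass with control 3 as the only control. Without adenoma 3, Smad4 did not pass either, with a log2 change of -0.45.

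Fetal and revival genes made the list of highest median, 5.45 against 0.27 for all genes tested, with 16 of 18 higher and 0 lower. Their summed level was 382, 459.6 and 480.0 CPM in the controls and 18148, 15956 and 19538 CPM in the adenomas. Anxa8 was at 0.501, 0.545 and 0.379 CPM in the controls and at 149, 93.9 and 178 CPM in the adenomas (log2 change 6.54 ± 0.22, adjusted p = 2.93e-08). Il33, an alarmin, was at 13.7, 13.4 and 27 CPM in the controls and at 51.6, 7.65 and 134 CPM in the adenomas and did not pass, with adenoma 2 below every control (log2 change 1.12 ± 0.91, adjusted p = 0.336).

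Gastric genes rose to uneven levels. 9 of 14 tested were higher and none was lower. Ctse, the gastric protease cathepsin E, was at 16.9, 39.2 and 19.2 CPM in the controls and at 1243, 1228 and 1293 CPM in the adenomas (log2 change 5.68 ± 0.37, adjusted p = 2.94e-06). Tff2, a mucus peptide of the stomach, was at 6.51, 37.3 and 0.227 CPM in the controls and at 1319, 298 and 2946 CPM in the adenomas (log2 change 7.22 ± 1.35, adjusted p = 0.00375). Gkn1, the gastric secreted protein gastrokine, was at 27.8, 162 and 2.12 CPM in the controls and at 834, 55.6 and 2427 CPM in the adenomas. Ctse was even between adenomas, whereas Tff2 and Gkn1 were lowest in adenoma 2 and highest in adenoma 3, and the groups overlapped for Gkn1 (log2 change 4.31 ± 1.77, adjusted p = 0.0801). Control 2 was also the control with the highest levels of Gkn1 and Tff2, and of Muc5ac, the surface mucin of the stomach. Muc5ac was at 10.2, 65.2 and 0 CPM in the controls and at 0, 0.0805 and 8.7 CPM in the adenomas. Vsig1 and Anxa10, genes of gastric epithelium, rose by 5.02 and 5.15 and Muc1 by 4.16.

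Genes of the growth regulators YAP and TAZ and their targets were higher in 11 of 16 genes of the pathway and lower in 0. Of all genes tested, 33.1% were higher and 18.0% lower. Tead4, Ccn2, Amotl1 and Ptpn14 were under 1 CPM in every control and reached the filter only through adenomas, so the count is a description alone. Wwtr1, the gene of TAZ, was at 0.572, 0.778 and 1.14 CPM in the controls and at 32.8, 60.7 and 24 CPM in the adenomas (log2 change 4.36 ± 0.30, adjusted p = 1.47e-06). Yap1 rose too (log2 change 0.91 ± 0.13, adjusted p = 2.32e-04). The target Ccn2 was at 0, 0.234 and 0 CPM in the controls and at 39.6, 19.9 and 17.9 CPM in the adenomas (log2 change 4.55 ± 0.31, adjusted p = 1.28e-06). Tead3 did not pass before TMM scaling (-0.28) and passed as lower after it.

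Transcription factors of intestinal identity were lower in 13 of 22 and higher in 3. Hnf4g, a nuclear receptor that maintains the enterocyte programme, was at 168, 142 and 207 CPM in the controls and at 11.5, 12.5 and 4.64 CPM in the adenomas (log2 change -4.12 ± 0.30, adjusted p = 2.66e-06). Its paralogue Hnf4a was at 865, 753 and 891 CPM in the controls and at 531, 831 and 375 CPM in the adenomas, with adenoma 2 within the range of the controls (log2 change -0.60 ± 0.24, adjusted p = 0.0585). Cdx2, the factor that specifies intestine, was at 223, 187 and 185 CPM in the controls and at 139, 207 and 153 CPM in the adenomas (log2 change -0.26 ± 0.17, adjusted p = 0.209). Adenoma 2 was also the highest adenoma for Cdx2, and both genes passed as lower after TMM scaling. Foxa1 rose (log2 change 2.65 ± 0.15, adjusted p = 4.33e-07), as did Foxa3 and Prdm1, the latter a repressor of the suckling epithelium (log2 changes of 1.94 and 2.46). Cdx1 fell by 0.89 and the xenobiotic receptor gene Nr1i2 by 1.61. Cdx1 no longer passed with the term for Y-linked reads. Cdx1 did not pass with control 3 as the only control. Without control 1, control 3, adenoma 1 or adenoma 3, Cdx1 did not pass either, with log2 changes of -0.87 to -0.72.

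Homeobox genes of the Hox clusters, which encode position along the gut, were examined after their values were seen. In the Hoxa cluster 5 of 8 tested genes rose, beside 33.1% of all genes tested. Hoxa2, Hoxa4, Hoxa6, Hoxa9 and Hoxa10 were under 1 CPM in every control. They reached the filter only through adenomas, so the count is a description alone. Hoxa9 was at 0.143, 0.467 and 0.303 CPM in the controls and at 57.8, 108 and 82 CPM in the adenomas (log2 change 5.96 ± 1.54, adjusted p = 0.0147). Hoxa7 was at 0.501, 2.26 and 3.94 CPM in the controls and at 68.7, 86.8 and 73.9 CPM in the adenomas (log2 change 4.74 ± 0.83, adjusted p = 0.00197). The groups did not overlap for either gene, and Hoxa5 and Hoxa3 rose by 4.14 and 2.24. Hoxa9 was at 69.2, 0.444 and 138 CPM in the transgene adenomas, low in the second alone. The Hoxb cluster followed another pattern. Hoxb6 was at 0, 0 and 78.4 CPM in adenomas 1, 2 and 3, and Hoxb9 at 0.141, 1.53 and 49.96 CPM. The 7 Hoxb genes in the table summed to 1.34, 1.69 and 229 CPM in the adenomas and to at most 2.8 CPM in a control. Adenoma 3 was thus the 1 library of the 6 with a high level of this cluster. Hoxa9 and Hoxa3 no longer passed with the term for Y-linked reads. Hoxa9, Hoxa7 and Hoxa3 did not pass with control 3 as the only control. Without adenoma 2, Hoxa9 did not pass either, with a log2 change of 5.75.

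**Figure D2:**
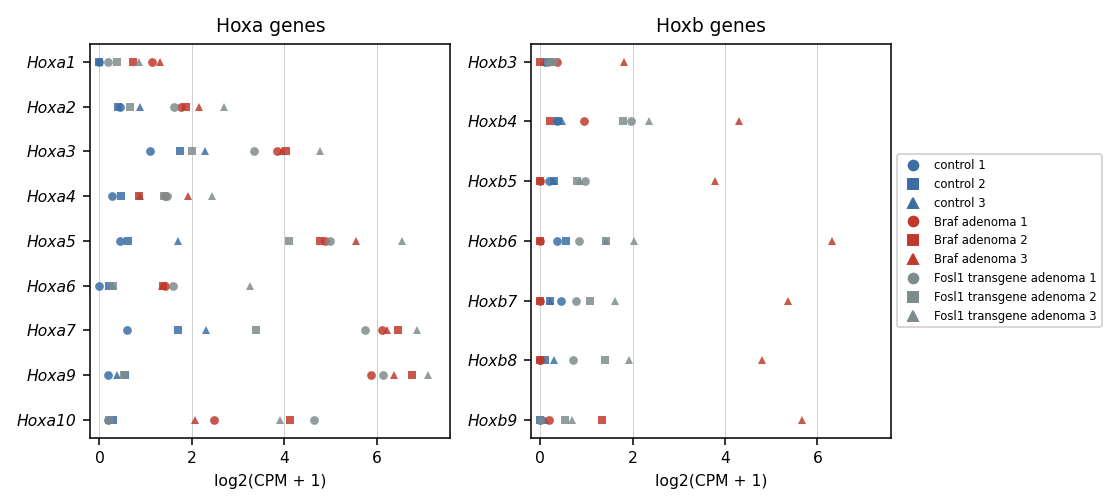
Level of the genes of the Hoxa (left) and Hoxb (right) clusters on the log2(CPM + 1) scale, 1 point per library, with controls in blue, Braf adenomas in red and transgene adenomas in grey. Hoxa7 and Hoxa9 were high in all 3 Braf adenomas, and the Hoxb genes in Braf adenoma 3.

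Of genes of ileal bile acid and cobalamin handling, 6 of 8 tested were lower and 1 higher, and the list summed to 1426, 1430.2 and 1238 CPM in the controls and 286, 379 and 219 CPM in the adenomas. Its members Fabp6 and Slc10a2 were low in all 6 libraries. Fabp6, the bile acid binding protein of ileal enterocytes, was at 1.79, 0.234 and 0.379 CPM in the controls and at 0.422, 0.564 and 0.147 CPM in the adenomas and was singled out after its values were seen. The bile acid transporter gene Slc10a2, the member that rose, was at 2.22, 0.467 and 1.82 CPM in the controls and at 4.43, 11.3 and 2.8 CPM in the adenomas (log2 change 1.42 ± 0.50, adjusted p = 0.0367). Both stayed low beside the proximal enzyme Lct in the controls, and the transgene adenomas had Fabp6 at 0.258, 0.074 and 47.4 CPM, high in the third alone. The call of Slc10a2 was lost after TMM or median-ratio scaling. Slc10a2 no longer passed with the term for Y-linked reads. Slc10a2 did not pass with control 3 as the only control. Without control 2, control 3, adenoma 1 or adenoma 2, Slc10a2 did not pass either, with log2 changes of 0.94 to 1.54.

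Digestive enzymes of the brush border were the list of lowest median, -6.55, with 18 of 19 lower and none higher. The summed level of the list was 29471, 29257 and 22869 CPM in the controls and 2388, 2992 and 787 CPM in the adenomas. Dpp4, dipeptidyl peptidase, was at 696, 516 and 467 CPM in the controls and at 5.76, 1.37 and 0.811 CPM in the adenomas (log2 change -7.49 ± 0.52, adjusted p = 8.26e-06). Mgam, maltase-glucoamylase, was at 2863, 3038 and 2753 CPM in the controls and at 230.0, 218 and 111 CPM in the adenomas (log2 change -4.02 ± 0.29, adjusted p = 3.16e-06). Mgam and Sis both digest starch, and their log2 changes were -4.02 and -8.91. Alpi, intestinal alkaline phosphatase, was the member that did not pass, at 1766, 2367 and 620.2 CPM in the adenomas against 3432, 5263 and 2228 CPM (log2 change -1.32 ± 1.00, adjusted p = 0.303).

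Genes of microvillus structure were lower in 15 of 18, with 1 higher and a median of -1.78. Vil1, villin, the actin bundler whose promoter drives the Cre, was at 3232, 2777 and 2363 CPM in the controls and at 759, 1123 and 590.3 CPM in the adenomas (log2 change -1.80 ± 0.24, adjusted p = 1.22e-04). Myo1a, the myosin of the microvillus, was at 2394, 2385 and 2053 CPM in the controls and at 331, 537 and 234 CPM in the adenomas (log2 change -2.71 ± 0.26, adjusted p = 1.47e-05). Adenoma 2 was the highest adenoma in both, below every control. Pdzk1, a scaffold of apical transporters, fell further (log2 change -5.66 ± 0.49, adjusted p = 1.21e-05). Myo6, the endocytic myosin, did not pass (-0.00, interval -0.37 to 0.36).

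Sugar and amino acid transporters were lower in 16 of 17 and higher in none. Slc5a1, the sodium-glucose cotransporter, was at 2798, 2875 and 2290.0 CPM in the controls and at 72.3, 64.5 and 20.3 CPM in the adenomas (log2 change -5.82 ± 0.48, adjusted p = 2.31e-05). Slc2a2, the basolateral glucose transporter, was at 479.9, 483 and 304 CPM in the controls and at 4.78, 3.62 and 0.516 CPM in the adenomas (log2 change -6.91 ± 0.65, adjusted p = 5.35e-05). Adenoma 3 was the lowest library in both. Slc15a1, the peptide transporter, was at 460.1, 518 and 372 CPM in the controls and at 10.3, 11.8 and 0.811 CPM in the adenomas (log2 change -6.13 ± 0.69, adjusted p = 1.93e-04). The inositol transporter gene Slc5a11 had reads in 1 of the 3 adenomas (log2 change -7.42 ± 0.27, adjusted p = 3.24e-08).

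Fat absorption genes were lower in 20 of 21. Apoa1, the apolipoprotein that was the second most abundant transcript of the controls, was at 10958, 13556 and 6654 CPM in the controls and at 414, 236 and 3.1 CPM in the adenomas (log2 change -7.07 ± 1.63, adjusted p = 0.0093). Fabp1, a fatty acid binding protein, was at 2746, 3606 and 1926 CPM in the controls and at 135, 119 and 2.21 CPM in the adenomas (log2 change -6.16 ± 1.55, adjusted p = 0.0138). Adenoma 3 was far below the other adenomas in both, and their standard errors were wide. Fabp2 was at 6435, 7079 and 4598 CPM in the controls and at 138, 72.2 and 42.6 CPM in the adenomas (log2 change -6.28 ± 0.39, adjusted p = 2.31e-06), and Dgat1, which makes triglyceride, fell by a similar amount in each adenoma (log2 change -4.06 ± 0.23, adjusted p = 5.07e-07).

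Ion and water transport was lower in 16 of 25 genes and higher in 3. Slc26a3, the chloride-bicarbonate exchanger, was at 172, 169.7 and 198 CPM in the controls and at 13.4, 5.88 and 3.83 CPM in the adenomas (log2 change -4.53 ± 0.39, adjusted p = 1.33e-05). The potassium channel gene Kcnq1 rose by 1.20 and Car2, a cytosolic carbonic anhydrase, by 2.51. Cftr, the chloride channel of crypts, did not pass (0.04, interval -0.71 to 0.79).

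Among genes of iron uptake, 1 of 9 was higher and 2 lower, beside 33.1% and 18.0% of all genes tested. With the term for Y-linked reads 0 were higher and 3 lower. Cybrd1 was at 6.08, 4.98 and 8.41 CPM in the controls and at 771, 2873 and 213 CPM in the adenomas (log2 change 6.73 ± 1.62, adjusted p = 0.0114). Every adenoma was above every control, highest in adenoma 2 and lowest in adenoma 3. Slc11a2, the ferrous iron transporter of the same membrane, was at 175, 245 and 134 CPM in the controls and at 442, 1039 and 61.7 CPM in the adenomas (log2 change 0.77 ± 1.30, adjusted p = 0.649). Its adenoma values had the same order as those of Cybrd1, but adenoma 3 was below the controls. Fth1, ferritin heavy chain, fell by 1.19 and the heme and folate transporter gene Slc46a1 by 3.03.

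Retinoid handling changed in both directions, with 6 of 16 genes higher and 7 lower, beside 33.1% and 18.0% of all genes tested. Rbp2, which holds dietary retinol in the enterocyte, was at 3716, 4794 and 3393 CPM in the controls and at 294, 319.9 and 84.2 CPM in the adenomas (log2 change -4.29 ± 0.61, adjusted p = 6.54e-04). Rdh10, which oxidises retinol to retinal, was at 37.5, 40.4 and 40.6 CPM in the controls and at 469, 590.0 and 512 CPM in the adenomas (log2 change 3.69 ± 0.15, adjusted p = 5.38e-08). Rarb, a retinoic acid receptor, was at 0.0715, 0 and 0 CPM in the controls and at 13.2, 21.7 and 5.45 CPM in the adenomas (log2 change 3.64 ± 0.46, adjusted p = 1.04e-04). Genes of dietary uptake thus fell while Rdh10, Rarb and the receptor gene Stra6 rose. Apoa1, Fabp1, Car2 and Cybrd1 no longer passed with the term for Y-linked reads. Against control 3 alone, Apoa1, Fabp1, Car2, Cybrd1, Fth1 and Slc46a1 did not pass.

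Most detoxification genes fell. Of 22 cytochrome P450 genes 17 were lower and 1 higher, and of 24 conjugation and efflux genes 20 were lower and 1 higher. Cyp3a11 was at 532, 1157 and 162 CPM in the controls and at 5.34, 3.06 and 0.516 CPM in the adenomas (log2 change -7.10 ± 0.92, adjusted p = 4.72e-04). Cyp2b10 was at 257, 400.4 and 136 CPM in the controls and at 0.562, 0.564 and 1.25 CPM in the adenomas (log2 change -7.10 ± 0.37, adjusted p = 3.19e-07). In both, control 2 was highest and control 3 lowest, and the groups did not overlap. Cyp1b1, an extrahepatic form, went the other way, at 0, 0.234 and 0 CPM in the controls and at 16.7, 9.74 and 6.71 CPM in the adenomas (log2 change 3.40 ± 0.36, adjusted p = 2.97e-05). Gstm3 and the efflux pump gene Abcg2 fell by 5.69 and 4.62 and Gsta4, which detoxifies lipid peroxidation products, rose by 1.30.

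Fatty acid oxidation was lower in 14 of 19 genes and higher in 2, with 8 lower under the term for Y-linked reads, and of 8 genes of gluconeogenesis and fructose metabolism 7 were lower and 1 higher. Ppargc1a, a coactivator of mitochondrial genes, was at 64.1, 40.2 and 61.7 CPM in the controls and at 5.97, 1.69 and 4.27 CPM in the adenomas (log2 change -3.58 ± 0.33, adjusted p = 1.21e-05). Khk, which starts fructose breakdown, was at 676, 825 and 504 CPM in the controls and at 32.4, 18.9 and 12.1 CPM in the adenomas (log2 change -5.00 ± 0.40, adjusted p = 1.32e-05).

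Glycolysis as a list had a median of -0.02, with 5 of 20 higher and 3 lower, below the 33.1% and 18.0% of all genes. Genes of glucose entry were among those that rose. Hk1, a hexokinase, was at 9.37, 14.9 and 8.48 CPM in the controls and at 116, 144 and 98.8 CPM in the adenomas (log2 change 3.36 ± 0.22, adjusted p = 1.15e-06). Hk2 and the glucose transporter gene Slc2a1 rose by 1.95 and 2.03. Ldha, lactate dehydrogenase, did not pass on the CPM scale (log2 change -0.49 ± 0.20, adjusted p = 0.0661) and passed as lower after TMM scaling.

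Respiratory chain genes of the nucleus were lower in 11 of 23 and higher in 1 (median -0.37). The complex II gene Sdhb was at 426, 384 and 474 CPM in the controls and at 184, 186 and 191 CPM in the adenomas (log2 change -1.18 ± 0.13, adjusted p = 3.98e-05). Mitochondrially encoded genes were lower in 8 of 11 and took 4.21 to 4.68% of reads in the controls and 2.21 to 2.38% in the adenomas.

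Cholesterol synthesis was higher in 13 of 21 genes and lower in 1. The sterol demethylase gene Cyp51 was at 57.1, 45 and 78.7 CPM in the controls and at 137, 267 and 169 CPM in the adenomas, highest in adenoma 2 (log2 change 1.63 ± 0.26, adjusted p = 5.38e-04). Srebf2, the sterol-sensing regulator, rose by 1.32.

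Of 17 genes of cystine uptake and the NRF2 stress response, 8 were higher and 4 lower, and 5 and 7 after TMM scaling. On the CPM scale 33.1% of all genes tested were higher and 18.0% lower. Slc7a11, the cystine-glutamate exchanger, was at 0, 0.234 and 0.227 CPM in the controls and at 87.1, 80.4 and 125 CPM in the adenomas (log2 change 6.40 ± 0.33, adjusted p = 2.90e-07). Its partner subunit gene Slc3a2 was at 482, 501 and 421 CPM in the controls and at 150.0, 164 and 170.2 CPM in the adenomas (log2 change -1.53 ± 0.14, adjusted p = 9.00e-06). The light chain thus rose and the heavy chain fell, with no overlap between groups in either. Nqo1 and Srxn1, standard NRF2 targets, fell by 1.69 and 1.27, and Hmox1, heme oxygenase, rose by 4.37.

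Ribosomal protein genes were higher in 31 of 31, also after TMM scaling, with a median of 1.25. Rpl7 was at 572, 513 and 776 CPM in the controls and at 1892, 2252 and 2189 CPM in the adenomas (log2 change 1.78 ± 0.17, adjusted p = 1.67e-05). These genes have many pseudogene copies, between which reads may have been divided.

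Many genes of the secretory lineages fell. Enteroendocrine genes were lower in 16 of 19 and higher in none, and their summed level was 422, 579.8 and 362 CPM in the controls and 55.1, 40.1 and 15.1 CPM in the adenomas. Chga, chromogranin A, was at 77.4, 92.6 and 58.2 CPM in the controls and at 4.57, 2.9 and 1.18 CPM in the adenomas (log2 change -4.39 ± 0.33, adjusted p = 2.90e-06). Neurog3, the factor that commits precursors to this lineage, was at 4.86, 5.68 and 5.08 CPM in the controls and at 0.632, 0.161 and 0.0737 CPM in the adenomas (log2 change -2.29 ± 0.26, adjusted p = 4.08e-05). Committing factor and granule protein thus fell together. In bulk tissue, fewer cells of a type and less RNA per cell cannot be told apart, which holds for every cell type below.

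Tuft cell genes were lower in 8 of 11 and higher in 1. Pou2f3, the factor that specifies tuft cells, was at 4.43, 4.83 and 5.45 CPM in the controls and at 0.703, 0.886 and 0.884 CPM in the adenomas (log2 change -1.69 ± 0.22, adjusted p = 1.14e-04). Avil, an actin regulator counted as a tuft marker, was at 15.2, 20.9 and 14.4 CPM in the controls and at 216, 206 and 260.4 CPM in the adenomas (log2 change 3.69 ± 0.18, adjusted p = 2.07e-07). Avil thus rose while 8 other markers fell, and the groups did not overlap for either gene.

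Goblet cell genes were lower in 6 of 15 and higher in 1. Atoh1, the master factor of secretory cells, was at 13.6, 14.7 and 12.9 CPM in the controls and at 3.72, 1.21 and 1.55 CPM in the adenomas (log2 change -2.30 ± 0.39, adjusted p = 6.58e-04). Muc2, the gel-forming mucin, was at 1059, 1061 and 834 CPM in the controls and at 663, 87.7 and 332 CPM in the adenomas (log2 change -1.86 ± 0.65, adjusted p = 0.0435). Adenoma 2 had the least Muc2 and adenoma 1 the most, and both genes were below every control. Clca1, a secreted goblet protein, did not pass (-1.44).

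Paneth cell genes were lower in 9 of 14, or in 5 with the term for Y-linked reads, and higher in 1. Lyz1, lysozyme, was at 185, 254 and 514 CPM in the controls and at 83.4, 54.2 and 174 CPM in the adenomas (log2 change -1.64 ± 0.72, adjusted p = 0.0925). Mmp7, the protease that activates defensins, was at 7.15, 7.71 and 16.2 CPM in the controls and at 321, 724 and 163 CPM in the adenomas (log2 change 4.98 ± 0.53, adjusted p = 1.11e-04). Lyz1 was below every control in each adenoma and passed as lower after TMM scaling, while Mmp7 was high in every adenoma. Reg3a, an antimicrobial lectin of enterocytes and Paneth cells, fell from 172, 172 and 90.2 CPM to 0.141, 0.0805 and 0.0737 CPM (log2 change -6.99 ± 0.30, adjusted p = 8.91e-08). Muc2 no longer passed with the term for Y-linked reads. Muc2 did not pass with control 3 as the only control. Without control 1, control 2, control 3 or adenoma 3, Muc2 did not pass either, with log2 changes of -2.01 to -1.80.

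Of proliferation genes, 8 of 24 were higher on the CPM scale, close to the 33.1% of all genes tested, and none lower. Of the list, 3 were higher after TMM scaling and 2 with the term for Y-linked reads. Mki67, the usual marker of cycling cells, was at 159, 154 and 322 CPM in the controls and at 144, 213 and 175 CPM in the adenomas, and control 3 was the highest library (log2 change -0.18 ± 0.33, adjusted p = 0.667). Of inhibitors of cyclin-dependent kinases, 2 of 7 were higher and 0 lower, not above the shares of all genes tested. After TMM scaling 1 was higher. Cdkn2a, which encodes the p16 and p19 tumour suppressors, was at 0.286, 0.0778 and 0.152 CPM in the controls and at 81.2, 40.3 and 89 CPM in the adenomas (log2 change 5.85 ± 0.42, adjusted p = 2.76e-06). Cdkn1a, p21, was at 144, 137 and 94.8 CPM in the controls and at 179, 252 and 297 CPM in the adenomas (log2 change 0.94 ± 0.25, adjusted p = 0.01). Cdkn2a went from close to no reads to a clear signal, whereas Cdkn1a was expressed in both groups.

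Targets of p53 were higher in 15 of 20 and lower in 1. Phlda3, an inhibitor of AKT, was at 1.36, 1.87 and 2.27 CPM in the controls and at 198, 186 and 229.9 CPM in the adenomas (log2 change 6.19 ± 0.21, adjusted p = 2.93e-08). Plk2 and Ccng1 rose by 4.07 and 1.81. Mdm2, which degrades p53, did not pass (0.05, interval -0.31 to 0.42) and the death receptor gene Fas fell by 1.66. Of cell death regulators of the BCL2 family, 5 of 13 were higher and 1 lower, near the background share. Bok was at 10.4, 13.9 and 10.3 CPM in the controls and at 265, 245 and 309 CPM in the adenomas (log2 change 4.46 ± 0.16, adjusted p = 3.24e-08), and Bcl2l1, which protects cells, rose by 1.41. The survival gene Mcl1 had 1 of the narrowest intervals (log2 change -0.19 to 0.31), with 202, 208 and 211 CPM in the controls and 213, 212 and 223 CPM in the adenomas.

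Autophagy genes, Atg9b included, rose in part, with 10 of 17 higher and 1 lower. Gabarapl1 and Map1lc3a, which coat autophagosomes, rose by 2.70 and 2.15, while the abundant relative Gabarap did not pass (0.24). Genes of DNA methylation and mismatch repair gave 2 higher and 2 lower of 12, not above the 33.1% and 18.0% of all genes. Dnmt1, the maintenance DNA methyltransferase, did not pass (0.02). The call of Cdkn1a was lost after TMM or median-ratio scaling. Atg9a did not pass with control 3 as the only control.

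Most epithelial genes remained abundant. Of 14 epithelial genes 10 were higher and 2 lower, and 7 and 2 after TMM scaling. On the CPM scale 33.1% of all genes tested were higher and 18.0% lower. The members that fell were Vil1 and Spint1, with log2 changes of -1.80 and -0.88. Epcam was at 1668, 1451 and 1679 CPM in the controls and at 2342, 2533 and 2411 CPM in the adenomas (log2 change 0.61 ± 0.13, adjusted p = 0.00301). Krt18, a simple-epithelial keratin, was at 285, 277 and 280.4 CPM in the controls and at 3219, 3584 and 3335 CPM in the adenomas (log2 change 3.58 ± 0.13, adjusted p = 3.24e-08). Its partner Krt8 rose too (log2 change 0.86 ± 0.16, adjusted p = 0.00125). Krt18 has processed pseudogenes, between which reads may have been divided. Of keratins, 5 of 10 were higher and 1 lower, beside 33.1% and 18.0% of all genes tested. Krt7, a keratin of ducts, was at 93.1, 100.5 and 103 CPM in the controls and at 1815, 1285 and 2429 CPM in the adenomas (log2 change 4.16 ± 0.22, adjusted p = 3.29e-07), and Krt23 rose by 5.38. Krt20, the keratin of mature villus cells, was at 1907, 1703 and 1173 CPM in the controls and at 536, 618 and 511 CPM in the adenomas (log2 change -1.50 ± 0.35, adjusted p = 0.00601).

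In the list of epithelial-mesenchymal transition 1 of 9 was higher and 1 lower, below the background share. Vim, vimentin, was at 11.9, 12.3 and 6.89 CPM in the controls and at 23.8, 4.75 and 15.3 CPM in the adenomas (log2 change 0.26 ± 0.63, adjusted p = 0.75). Fn1, fibronectin, was at 0.286, 10.2 and 0.833 CPM in the controls and at 156, 31.6 and 133 CPM in the adenomas (log2 change 4.89 ± 0.90, adjusted p = 0.0029). Both were lowest of the adenomas in adenoma 2, as was the fibroblast gene Col1a1. Cdh1, E-cadherin, rose by 1.04 and Cdh17, the cadherin of intestinal epithelium, fell by 0.80.

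Genes of proteolysis at the cell surface rose, with 4 of 6 members of the plasminogen system higher and 1 lower. Plaur, the receptor of urokinase, was at 2.07, 3.27 and 2.12 CPM in the controls and at 157, 143 and 282 CPM in the adenomas (log2 change 5.75 ± 0.29, adjusted p = 2.76e-07). Its ligand gene Plau was at 0.0715, 1.01 and 0.152 CPM in the controls and at 15, 2.9 and 20.6 CPM in the adenomas (log2 change 3.03 ± 0.56, adjusted p = 0.00154). The receptor was high in all adenomas and the ligand low in adenoma 2. Matrix metalloproteinases and their inhibitors were higher in 14 of 17 and lower in none. Mmp14, a membrane-bound protease, was at 29.4, 25.3 and 21.4 CPM in the controls and at 151, 118 and 163 CPM in the adenomas (log2 change 2.46 ± 0.17, adjusted p = 1.28e-06).

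Integrins and laminins were higher in 16 of 18. Itga2, a collagen receptor, was at 17.9, 16 and 28.9 CPM in the controls and at 143, 143 and 121 CPM in the adenomas (log2 change 2.68 ± 0.21, adjusted p = 3.54e-06). Itga3 did not pass (-0.18, interval -0.49 to 0.14). Among claudins, which seal the space between cells, 3 of 13 were higher, 1 was lower and 9 did not pass. These shares are below the 33.1% higher and 18.0% lower of all genes tested. Cldn4 was at 53.4, 60.7 and 11.6 CPM in the controls and at 544, 560.3 and 833 CPM in the adenomas (log2 change 4.19 ± 0.57, adjusted p = 4.86e-04). Cldn15, a sodium pore of the villus, was at 951, 858 and 810.0 CPM in the controls and at 121, 55.9 and 36.1 CPM in the adenomas (log2 change -3.78 ± 0.35, adjusted p = 2.67e-05). Control 3 was low in Cldn4, and these 2 claudins moved in opposite directions. The call of Epcam was lost after TMM or median-ratio scaling. Krt20, Cdh17 and Epcam did not pass with control 3 as the only control.

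Of chemokine genes, 5 of 14 were higher and 3 lower, about the 33.1% and 18.0% of all genes tested. Cxcl5, a neutrophil attractant, had no read in the controls and was at 18.8, 3.54 and 20.7 CPM in the adenomas (log2 change 3.64 ± 0.56, adjusted p = 4.82e-04). Ccl25, which draws lymphocytes to the small intestine, was at 639, 604 and 778 CPM in the controls and at 75.4, 114 and 31 CPM in the adenomas (log2 change -3.36 ± 0.42, adjusted p = 1.95e-04). Ccl5 fell by 3.11 and Cxcl16 rose by 1.94.

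In the TNF family 7 of 15 were higher and 1 lower, beside 33.1% and 18.0% of all genes tested. Tnfrsf12a, the receptor of TWEAK, was at 8.44, 12.6 and 7.04 CPM in the controls and at 206, 159 and 258 CPM in the adenomas (log2 change 4.34 ± 0.24, adjusted p = 4.25e-07). Tnf was at 1.5, 0.311 and 1.14 CPM in the controls and at 17.3, 18.6 and 14.1 CPM in the adenomas (log2 change 3.20 ± 0.29, adjusted p = 1.07e-05). The ligand gene Tnfsf10, TRAIL, fell by 3.91. Of the interleukin-1 family, 5 of 9 were higher, or 3 with the term for Y-linked reads, and 2 lower. Il1a rose by 2.83 and Il18 fell by 1.92, both without overlap.

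Mucosal defence genes gave 6 of 11 higher and none lower, beside 33.1% and 18.0% of all genes tested. With the term for Y-linked reads 4 were higher and 1 lower. Pglyrp1, a peptidoglycan-binding protein, was at 68.9, 49.4 and 75.5 CPM in the controls and at 1142, 757 and 929.9 CPM in the adenomas (log2 change 3.85 ± 0.26, adjusted p = 1.65e-06). Duoxa2, which matures the peroxide-making oxidase Duox2, was at 4.58, 2.02 and 4.32 CPM in the controls and at 125, 205 and 78.2 CPM in the adenomas (log2 change 4.83 ± 0.47, adjusted p = 4.50e-05). Pigr, which carries antibody across the epithelium, was at 5551, 3818 and 5338 CPM in the controls and at 2358, 1539.7 and 734 CPM in the adenomas and did not pass on the CPM scale (log2 change -1.80 ± 0.72, adjusted p = 0.0682), whereas it passed as lower after TMM scaling. In prostaglandin metabolism, 5 of 12 were higher, or 3 with the term for Y-linked reads, and 3 lower. Of all genes tested 33.1% were higher and 18.0% lower. Hpgd, the degrading dehydrogenase, was at 152, 171 and 159 CPM in the controls and at 31, 31.1 and 26.5 CPM in the adenomas (log2 change -2.41 ± 0.17, adjusted p = 2.13e-06), and Ptges, which makes prostaglandin E, rose by 3.29.

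Class I antigen presentation was lower in 10 of 12 genes and higher in none. H2-T3 was at 389.5, 462 and 321 CPM in the controls and at 5.55, 3.22 and 0.516 CPM in the adenomas (log2 change -6.80 ± 0.55, adjusted p = 2.17e-05). B2m, the shared light chain, was at 944, 649.6 and 692 CPM in the controls and at 343, 144 and 186 CPM in the adenomas (log2 change -1.84 ± 0.42, adjusted p = 0.00639). The classical gene H2-D1 did not pass (-0.25, interval -0.73 to 0.23). Reads of H2 genes may be divided between similar copies. Butyrophilin-like genes, which sustain intraepithelial gamma-delta T cells, were lower in 4 of 4. Btnl1 was at 468, 348 and 299 CPM in the controls and at 23.9, 10.7 and 0.442 CPM in the adenomas (log2 change -5.61 ± 0.95, adjusted p = 0.00202). None of 7 class II genes passed with limma, 0 had an unadjusted p under 0.05, and edgeR called 0. H2-Ab1 was at 1292, 83 and 16.4 CPM in the controls and at 223, 11.5 and 38.2 CPM in the adenomas, with control 1 far above all other libraries. Interferon-responsive genes were higher in 1 of 15 and lower in 4, against 33.1% and 18.0% of all genes tested. Against control 3 alone, Ccl5 and B2m did not pass.

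Markers of several other cell types, though not of all, differed between the groups at low levels. T cell markers were lower in 12 of 13, with a summed level of 218, 259 and 92.7 CPM in the controls and 31, 7.97 and 6.34 CPM in the adenomas. Cd8a was at 21.7, 30.5 and 12.1 CPM in the controls and at 1.12, 0.242 and 0.147 CPM in the adenomas (log2 change -3.87 ± 0.41, adjusted p = 3.08e-05) and Gzmb, granzyme B, fell by 3.92. Of 8 neutrophil markers in the table, 5 passed the filter on low values, which none could reach in the controls. The list had a summed level of 0.143, 0.778 and 0.227 CPM in the controls and 35.8, 74 and 24.5 CPM in the adenomas. Its members S100a8 and Ly6g had no read in any control. Ly6g was at 6.96, 70.3 and 6.49 CPM in the adenomas, so that adenoma 2 was highest for this gene and lowest for S100a8, at 3.3, 0.0805 and 2.21 CPM. Ly6g alone thus made up most of the summed level of adenoma 2.

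Smooth muscle markers were higher in 7 of 7 (summed level 0.715, 17.8 and 1.36 CPM in the controls and 50.1, 85 and 186 CPM in the adenomas) and endothelial markers in 9 of 10 (4.79, 12.7 and 6.14 CPM in the controls and 93.7, 30.1 and 56.5 CPM in the adenomas). Most of these markers were under 1 CPM in controls 1 and 3, so those tested reached the filter mainly through adenomas and the counts are a description alone. Des, desmin, was at 0.286, 3.58 and 0.379 CPM in the controls and at 15.7, 23.6 and 61.2 CPM in the adenomas (log2 change 3.87 ± 0.59, adjusted p = 7.66e-04). Control 2 had the most muscle RNA of the controls and adenoma 3 the most of all libraries. Fibroblast markers were higher in 4 of 10 and lower in 1, with summed levels that overlapped (254, 327 and 164 CPM in the controls and 215, 34.7 and 175 CPM in the adenomas). Col1a1, collagen I, was at 0.358, 3.42 and 0.303 CPM in the controls and at 38.8, 5.56 and 27.9 CPM in the adenomas (log2 change 3.30 ± 0.78, adjusted p = 0.00839), and adenoma 2 was close to control 2. Fbln1, listed as a fibroblast gene, fell by 4.13. Macrophage markers were higher in 4 of 9 (7.58, 39 and 8.71 CPM in the controls and 245, 38.2 and 83.7 CPM in the adenomas). With the term for Y-linked reads, 1 macrophage and 2 fibroblast markers were higher. In the main fit 33.1% of all genes tested were higher and 18.0% lower.

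Of 3 mast cell genes tested, Mcpt1 and Mcpt2 rose and 1 fell, while the defining gene Cpa3 was at 0.143, 0.234 and 0.0758 CPM in the controls and 0.0703, 0 and 0.0737 CPM in the adenomas. Mcpt2, a mucosal mast cell protease, was at 0.143, 1.4 and 0.455 CPM in the controls and at 108, 76.3 and 461 CPM in the adenomas (log2 change 6.63 ± 0.65, adjusted p = 6.73e-05). Plasma cell RNA was high in 1 library of each group. Igha, the IgA heavy chain, was at 34.1, 1892 and 38.7 CPM in the controls and at 2154, 67.2 and 8.4 CPM in the adenomas, with control 2 and adenoma 1 far above the others. Markers of red cells, glia, mesothelium and exocrine pancreas gave 0, 1, 1 and 1 genes higher of 5, 3, 2 and 2, and none lower. The part of these cells in the inflammatory and matrix genes above was not tested. S100a8 no longer passed with the term for Y-linked reads. Against control 3 alone, Ly6g and S100a8 did not pass. Without control 1, control 2, control 3, adenoma 1 or adenoma 3, S100a8 did not pass either, with log2 changes of 0.90 to 1.30.

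**Figure D3:**
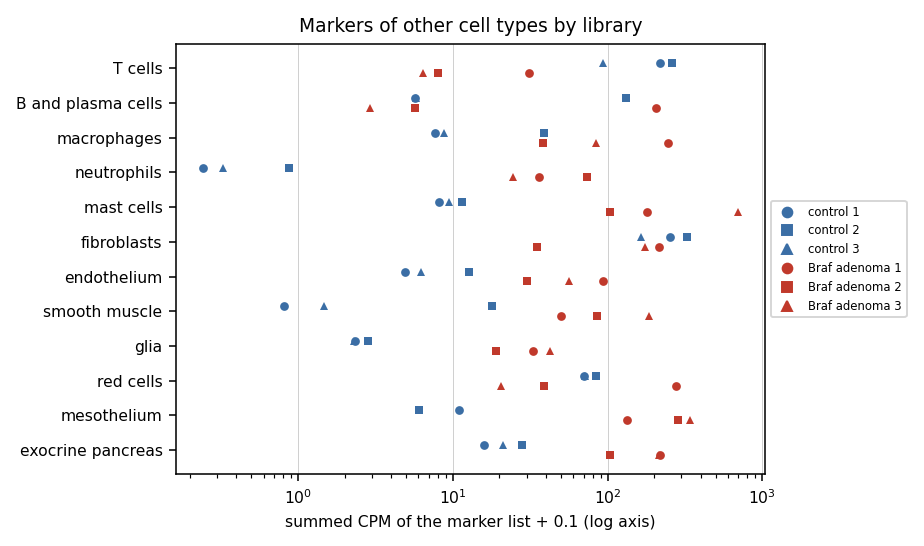
Summed CPM of the marker list of each of 12 other cell types, with 0.1 added, on a log axis, 1 point per library, blue for controls and red for Braf adenomas. T cell markers were lower in every adenoma than in any control, neutrophil, endothelial and smooth muscle markers higher, and B and plasma cell markers high in control 2 and adenoma 1.

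Set side by side, the lists of brush border, nutrient, fat, detoxification and enteroendocrine genes had medians below that of all genes, and the fetal, gastric, Wnt feedback, YAP and metalloproteinase lists above it. No list is called particular from this, since its members were chosen with results of these data known.

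**Figure D4:**
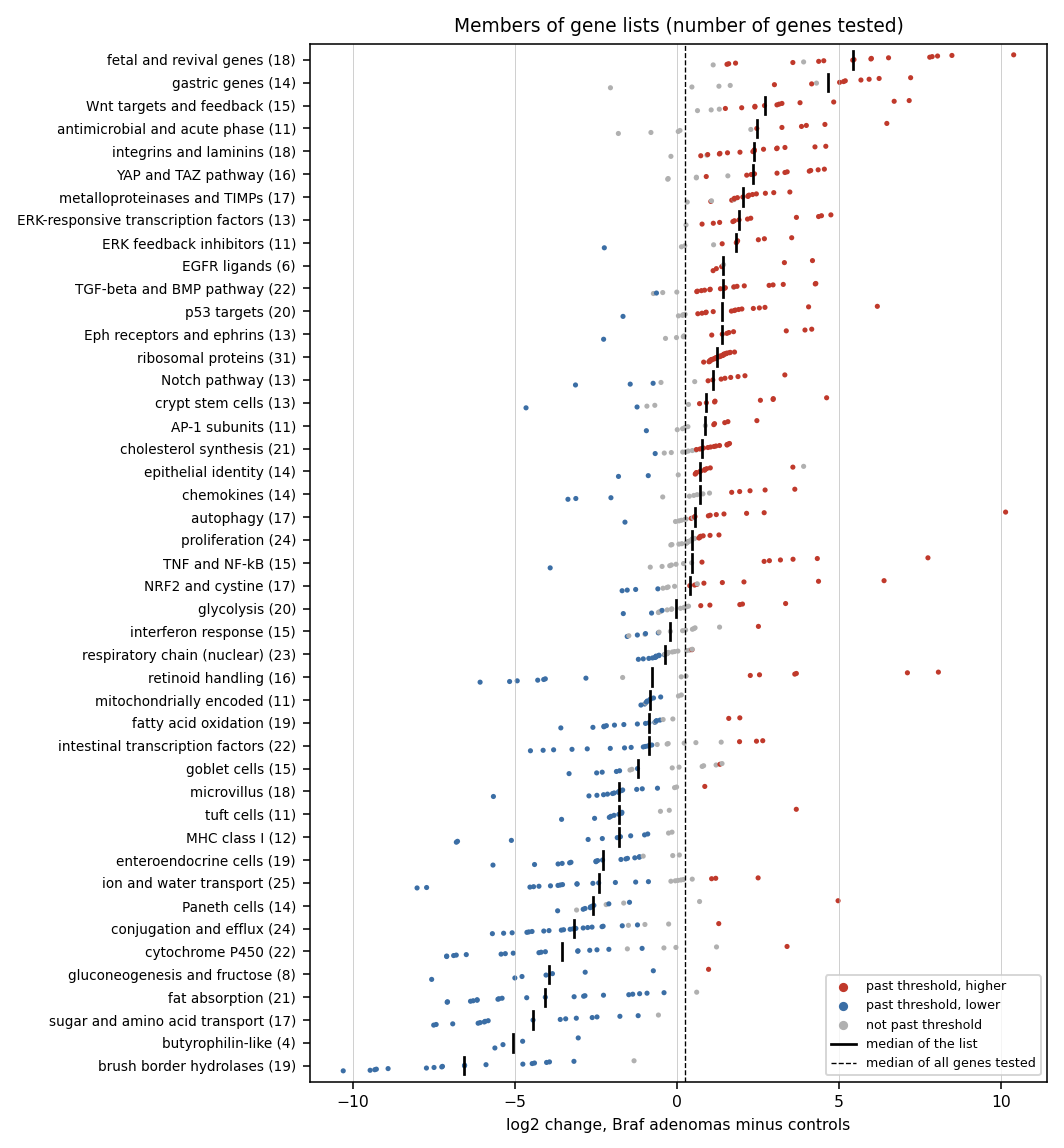
Log2 change of each tested member of 45 gene lists, ordered by the median of the list (black bar), with red and blue points past the threshold and grey points not. Medians run from -6.55 for brush border hydrolases to 5.45 for fetal and revival genes, against 0.27 for all genes tested (dashed line).

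**Figure D5:**
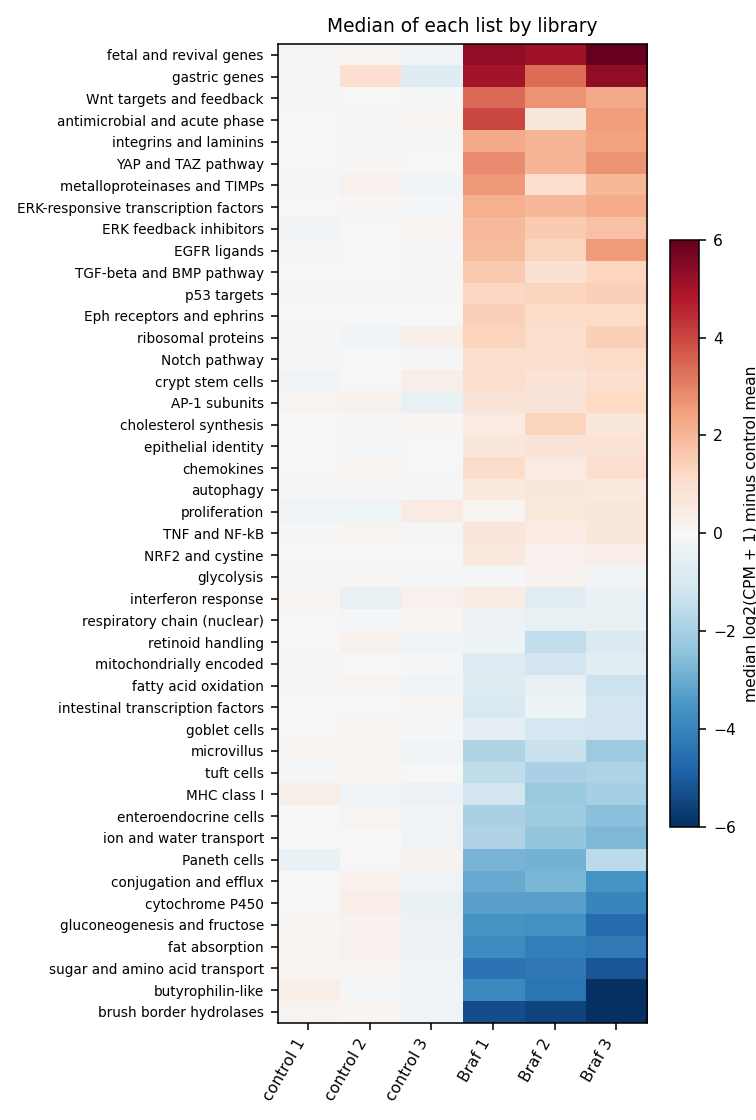
Median over the members of each list of log2(CPM + 1) minus the mean of the controls, for each of the 6 libraries, on a colour scale from blue (lower) to red (higher) that stops at 6 in either direction. The 3 adenomas share the direction of most lists, with adenoma 2 nearest to the controls for antimicrobial, gastric and metalloproteinase genes and adenoma 3 farthest from them for brush border and butyrophilin-like genes.

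The adenomas differed among themselves. Among 6224 genes with a mean of at least 20 CPM in both groups, 451 ranged over 2-fold between adenomas and 199 between controls. Of the 451 genes, adenoma 3 was the lowest adenoma in 311, adenoma 2 in 119 and adenoma 1 in 21. The widest ranges belonged to Igkc, Igha and Jchain of plasma cells, Gkn2 of the stomach, Apoa1 and Eno1b. Eno1b, a retrocopy of the enolase gene Eno1, was at 94.2, 0.545 and 66 CPM in the controls and at 0.0703, 97.6 and 84.8 CPM in the adenomas (log2 change -0.04 ± 2.16, adjusted p = 0.989). It was near absent from control 2 and adenoma 1, which were the libraries of high Igha.

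Several abundant genes had narrow intervals around 0. Gdi2 was at 303, 288 and 322 CPM in the controls and at 302, 292 and 309 CPM in the adenomas and Bag6 was at 207, 223 and 234 CPM in the controls and at 217, 230.1 and 210.2 CPM in the adenomas. Their intervals for the log2 change were -0.28 to 0.26 and -0.27 to 0.25. Cant1, Ubb and Clta had intervals of -0.09 to 0.43, -0.07 to 0.45 and -0.01 to 0.53.

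Chromosome X stood highest among the chromosomes. The median log2 change of genes with a mean above 5 CPM in either group was highest for chromosome X in all 3 adenomas, at 0.38, 0.57 and 0.49. Taken against control 3 alone, which like the adenomas had no Y-linked reads, the medians on X were 0.20, 0.36 and 0.27, and X ranked first in 1 adenoma and second in the others of 20 chromosomes.

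Against the Fosl1 transgene adenomas, 2918 genes or 19.2% passed, and 1893 passed without Braf adenoma 2. Both comparisons share the Braf libraries, so their values are given side by side. Khdc1a, a KH-domain gene on chromosome 1, was at 0.143, 0 and 0.0758 CPM in the controls and at 340.4, 195 and 287 CPM in the adenomas and at 0.517, 1.33 and 1.28 CPM in the transgene adenomas. It was thus near absent from both other groups, with log2 changes of 7.97 against controls and 7.06 against transgene adenomas (adjusted p = 8.82e-07 for the latter). Atp6v0d2, a proton pump subunit, was at 0.0715, 0 and 0 CPM in the controls and at 20.3, 155 and 69.1 CPM in the adenomas and at 0, 1.63 and 3.16 CPM in the transgene adenomas. Irx4, a homeobox gene, was at 1.14, 0.311 and 1.36 CPM in the controls and at 49.9, 62.8 and 128 CPM in the adenomas and at 1.03, 2.81 and 8.01 CPM in the transgene adenomas. In both the Braf adenomas were above all other libraries, by log2 changes of 4.79 and 4.18 over the transgene adenomas.

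Pitx1, a homeobox gene of hindlimb and gut, was at 18.9, 21.6 and 23.7 CPM in the controls and at 12, 1.53 and 5.31 CPM in the adenomas and at 126, 188 and 78.4 CPM in the transgene adenomas. The 2 kinds of adenoma lay on either side of the controls in every library (-4.39, adjusted p = 0.00175 between them). Apol10a, of the apolipoprotein L family, was at 252, 57.7 and 119.7 CPM in the controls and at 0.141, 0.322 and 0.147 CPM in the adenomas and at 30.8, 49.5 and 31.7 CPM in the transgene adenomas. It was lowest in the Braf adenomas (-4.96, adjusted p = 3.92e-04 between the 2 kinds). Anpep, at 76.3, 378 and 293 CPM in the transgene adenomas, was lower still in the Braf adenomas (-4.41, adjusted p = 0.00423). The transgene adenomas differ also in doxycycline and in sex, which cannot be told apart from the transgene in these values. Calls of single genes between the 2 kinds of adenoma were not checked with the term for Y-linked reads. In the comparison of Braf adenomas with controls, Pitx1 no longer passed with that term. Pitx1 did not pass with control 3 as the only control.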

How the data were processed

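RNA of intestinal epithelium and adenomas was sequenced on an Illumina NovaSeq instrument after library preparation with a TruSeq RNA v2 kit or a stranded kit with rRNA depletion, per the labels' protocols, and which kit made which library is not given in the sources used here. The submitters' processing notes name fastp, STAR, limma and the build GRCm38, without versions or roles. The values used are CPM per gene, deposited by the authors in 1 table of the libraries described here; 12 further columns of per-sample values were not used. Within a tolerance of 0.02 reads, 100% of values above 0 were whole multiples of the value of 1 read, so read counts were recovered from the deposited CPM for the count tests.

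From these values, log2(CPM + 1) was computed and limma 3.58.1 in R 4.3.3 was fitted with 1 mean per group over all 9 libraries, with trended and robust empirical Bayes moderation and a threshold of 0.05 on the Benjamini-Hochberg adjusted p. A gene was tested where at least 3 libraries reached 1 CPM. A gene under 1 CPM in every control reached this only through adenomas, and list counts that hold such genes are a description alone. Folds against a group without reads use a floor of 3 reads per library, and floors and intervals cover counting or between-library error only. No pair of libraries shared identical values. edgeR 4.0.16, DESeq2 1.42.0, other scalings, filters and pseudocounts and fits without each Braf or control library were alternatives. On simulated data with the sizes of these libraries (14881 genes), 100 genes were changed 2-fold and 100 were changed 4-fold. Equal numbers went up and down, and all genes shared 1 setting of spread. In the comparison of Braf adenoma with control, limma recovered 78% of the first and 98% of the second, and 4.35% of its calls were false. The simulation held no imbalance of the sexes and far fewer changed genes than were called in the data. Its share of false calls therefore does not measure that of the 7751 calls.

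Genes were named by rule: the 12 largest rises and falls among genes of at least 5 CPM without overlap between groups, per list its key members, the 4 smallest adjusted p, members against the majority and the most abundant member not called, the widest and narrowest ranges, the genes of most reads, and those that also differed from the transgene adenomas. Hox genes, Fabp6 and the genes of printed promoters fall outside it. The members and gene lists were chosen with earlier results of these data known. Gene positions are from the GRCm38 annotation, and 4 symbols occur in duplicate. The strand setting of the counting is not given in the sources used here, so reads of overlapping antisense genes cannot be told apart. Some genes are not reported here.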

Additional observations from a re-analysis of the deposited data

How the results depend on the processing

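The count of genes called ran from 6109 to 7822 when 1 library was left out, with 3948 to 5151 higher, 2161 to 2671 lower, 2457 to 3151 at least 2-fold higher and 1475 to 1806 at least 2-fold lower. Against transgene adenomas it ran from 1893 to 3056. Only Braf and control libraries were left out in this way, and no transgene library was. With a pseudocount of 5, 1733 genes were at least 2-fold higher. Without the control libraries that hold Y-linked reads, where the lone control is assumed to vary like the other groups, 3750 genes were called, 2286 higher and 1464 lower, with 1803 at least 2-fold higher. The term for Y-linked reads left 1288 genes against transgene adenomas. edgeR called 7643 and DESeq2 8148 genes. The cause of these differences was not tested. The replicate numbers do not pair the samples, since deviations of samples of the same number correlated at -0.03, -0.18 and 0.16. With the replicate block, 7740 genes were called, and Muc2 and Slc10a2 were the named genes to lose their call. Of 201 named genes called, 190 kept their call under the other scalings, filters, pseudocounts, tools and left-out libraries and 169 also with both treatments of Y-linked reads, which were added after the data were seen, and no named gene reversed a call. The term for Y-linked reads ended 13 of these calls and control 3 as the only control 30. At this depth a gene under the floor of 3 reads per library cannot be told from absence.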
